A study of Mus musculus with 6 samples.

Results

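Integrin and laminin genes were read in 6 RNA libraries of mouse cells, 2 from each of 3 groups. The members were all genes whose symbol begins with Itga, the symbols Itgb1 to Itgb8, and the laminin chains named Lama, Lamb or Lamc with a number. They came to 37 of the 37620 genes in the tables, of which 18 were integrin alpha, 8 integrin beta, 5 laminin alpha, 3 laminin beta and 3 laminin gamma genes. They were chosen by name and not by level. ESC were wild-type J1 embryonic stem cells, kept on fibroblast feeders inactivated with mitomycin-C, in medium with fetal bovine serum and LIF, and freed of the feeders before use. NPC were wild-type neural progenitor cells made from J1 ESC in culture. The group labelled Phc1-KO has the genotype Phc1-/- and is also described as derived from J1 ESC. Its title names ESC and its cell type entry reads NPC, so it was set against both. All 3 groups share the J1 background, and the extract protocol describes the 2 libraries of a group as biological replicates. Whether Phc1-KO was 1 clone, and which part of the gene was deleted, is not given in the sources used here.

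Integrins are receptors for the extracellular matrix and for other cells, each built of an alpha and a beta chain, and the pairing sets which ligand is bound. Laminins are basement membrane proteins built of an alpha, a beta and a gamma chain, and the alpha chain carries the main sites that integrins and dystroglycan bind. In the early embryo, laminins with the alpha 1 and alpha 5 chains form the first basement membranes, and embryonic stem cells and neural progenitors both attach to laminin through beta 1 integrins. Phc1 is a subunit of Polycomb repressive complex 1, which keeps developmental genes silent.

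The stretches before the start sites of 4 members are shown as 2 pairs whose members took different courses. Itga1 and Itga2 are neighbours on chromosome 13 that moved differently in the libraries labelled Phc1-KO, and Lama2 and Lama5 are laminin alpha chains that moved in opposite directions in NPC. Each line gives the 250 bases before the annotated start on the gene's own strand, 5′ to 3′, from RefSeq with the GRCm38.p6 build, and capitals mark CG dinucleotides, which read the same on both strands. The windows are chr13:115101965-115102214, chr13:114932101-114932350, chr10:27616943-27617192 and chr2:180225860-180226109, all on the minus strand and in the order of the lines. None of these 4 stretches overlapped an annotated exon, and each had 1 exact match in the mm9 genome.
Itga1: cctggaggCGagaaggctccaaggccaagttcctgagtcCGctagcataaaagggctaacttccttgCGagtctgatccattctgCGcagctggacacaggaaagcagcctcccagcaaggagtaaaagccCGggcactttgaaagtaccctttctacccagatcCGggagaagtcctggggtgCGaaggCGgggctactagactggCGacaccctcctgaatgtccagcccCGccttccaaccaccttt
Itga2: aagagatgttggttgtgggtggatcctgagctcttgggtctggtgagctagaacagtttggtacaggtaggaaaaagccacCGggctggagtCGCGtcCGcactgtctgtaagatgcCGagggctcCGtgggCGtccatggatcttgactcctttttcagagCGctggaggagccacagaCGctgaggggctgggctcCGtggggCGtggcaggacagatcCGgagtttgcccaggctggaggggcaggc
Lama2: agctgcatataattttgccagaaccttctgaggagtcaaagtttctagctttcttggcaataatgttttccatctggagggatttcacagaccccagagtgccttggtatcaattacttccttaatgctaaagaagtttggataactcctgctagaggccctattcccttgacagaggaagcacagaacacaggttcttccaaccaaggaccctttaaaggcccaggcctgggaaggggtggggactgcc
Lama5: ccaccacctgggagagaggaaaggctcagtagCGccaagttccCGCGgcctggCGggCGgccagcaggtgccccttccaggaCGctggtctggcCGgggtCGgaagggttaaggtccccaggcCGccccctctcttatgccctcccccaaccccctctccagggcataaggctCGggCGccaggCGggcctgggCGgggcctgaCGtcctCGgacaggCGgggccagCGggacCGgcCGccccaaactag
These stretches held 10 CG for Itga1, 12 for Itga2, 0 for Lama2 and 19 for Lama5. In windows of 300 bases that also take in the 50 bases after the start, CG was present in 94.6% of all 32851 windows and in all 26 windows of the 23 members that had an entry. The median was 7 CG over all windows and 11 over the members' windows. Lama2 had 1 CG in its window, and 5.43% of all windows had fewer. For Lama5, with 24 CG, 80.0% of windows had fewer. Itga1 and Itga2 lay close to each other, with 12 and 13 CG. These counts describe the letters of the window only.

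Gene counts per library ran from 15226214 to 21893821, and the members took 0.243% to 0.551% of them. Levels are given as CPM, counts scaled to a common library size after TMM adjustment, and as RPKM, CPM per kilobase of merged exons, wherever different genes are compared. Phc1 itself was at 459.7 and 460.5 CPM in ESC, 40.8 and 34.6 CPM in NPC, and 326.3 and 267.5 CPM in the libraries labelled Phc1-KO. Its RNA was therefore present in every library labelled Phc1-KO, at a log2 fold change of -0.63 (SE 0.15) against ESC. The 6 ESC markers summed to 2074 to 2089 CPM in ESC, 6.97 to 7.34 CPM in NPC and 2021 to 2470 CPM in Phc1-KO. By these markers the Phc1-KO libraries were near ESC, as in the series title, and far from the NPC of their cell type entry. The 7 neural progenitor markers with a match summed to 613.0 to 613.5 CPM in ESC, 2947 to 5070 CPM in NPC and 730.4 to 942 CPM in Phc1-KO. The 10 fibroblast markers, which the feeder cells would carry, summed to 130.3 to 136 CPM in ESC, 1935 to 3326 CPM in NPC and 865 to 897 CPM in Phc1-KO, with none at 0. The ratio of the higher to the lower library, over members at 5 CPM or more in a group, had a median of 1.05 in ESC, 1.62 in NPC and 1.19 in Phc1-KO. The ESC libraries were the closest pair by this ratio, and whether they were separate cultures is not known. An alternative therefore counted ESC as 1 library. The ratio of reads outside genes to reads in genes was 1.08 in Phc1-KO 1 and 0.661 in Phc1-KO 2.

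Of the 37 members, 33 had enough reads to be tested and 4 did not: Itgad, Itgax, Itgb6 and Lamc3, none above 0.864 CPM in any library. With ESC 2 left out, Itgb6 passed the filter and was called lower in NPC. A member is said to be called when its adjusted p was under 0.05 by edgeR's quasi-likelihood test with Benjamini-Hochberg adjustment over the 17489 genes tested. In NPC against ESC, 15 members were called higher and 13 lower, 84.8% of those tested, where 61.3% of all genes tested were called, 30.4% higher and 30.9% lower. In Phc1-KO against ESC, 2 were called higher and 4 lower, 18.2% of those tested, where 10.7% of all genes were called, 4.91% higher and 5.75% lower. In Phc1-KO against NPC, 14 were called higher and 13 lower, 81.8% of those tested, beside 64.9% of all genes, 32.3% higher and 32.7% lower. The comparisons share libraries, so their counts are not independent of each other. The median log2 fold change of the members was 0.40 in NPC against ESC, -0.38 in Phc1-KO against ESC and -0.10 in Phc1-KO against NPC, and over all genes it was -0.01, 0.00 and 0.00. The plot of levels by library shows all but 1 of the 37 members.

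**Figure D1:**
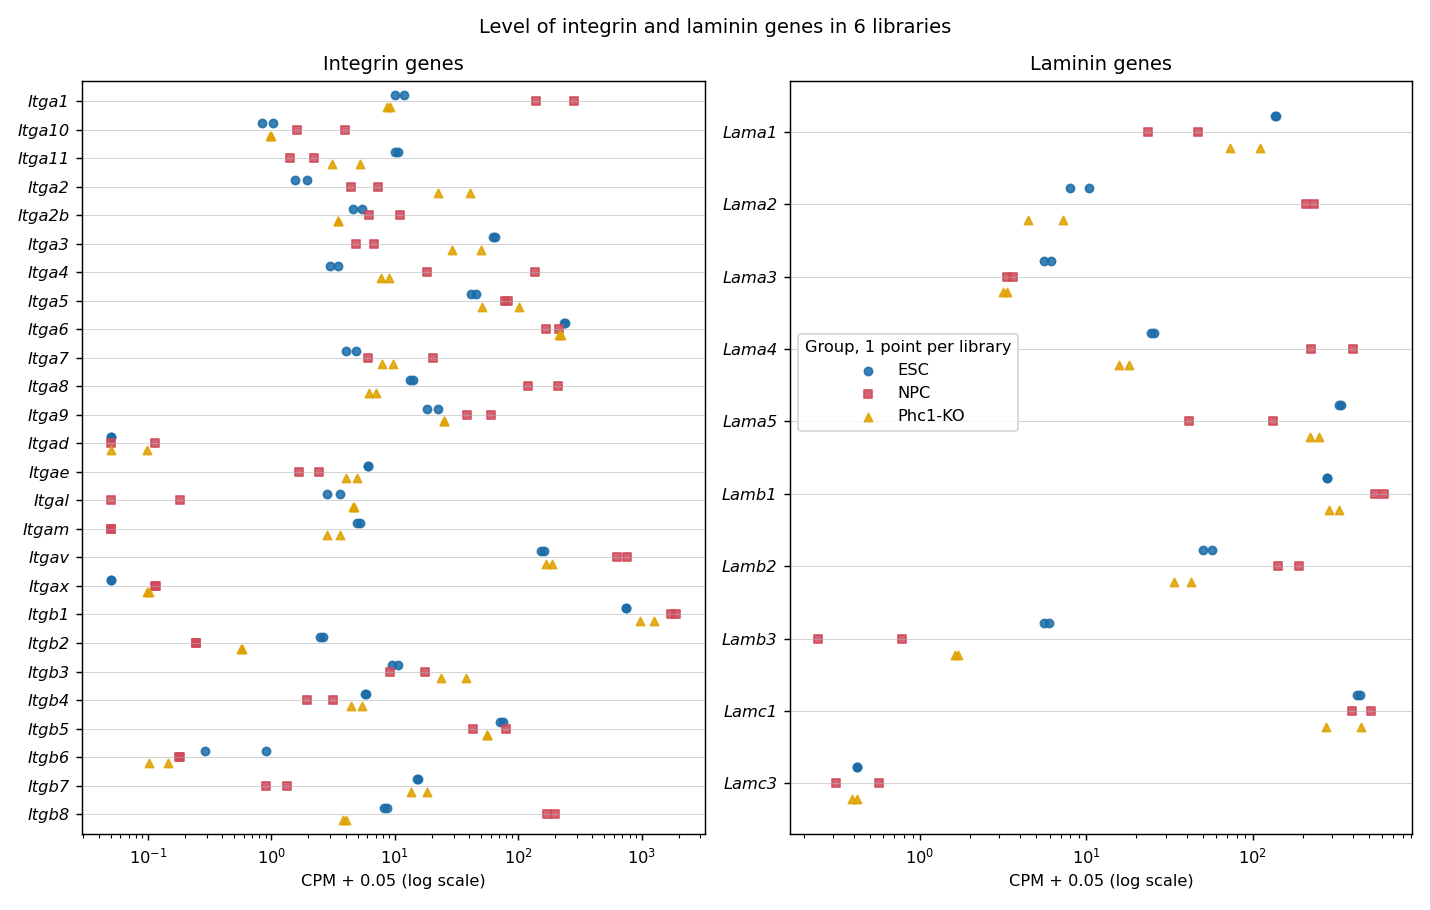
Level of all but 1 of the 37 members in each library, integrins on the left and laminins on the right. The horizontal axis is CPM plus 0.05 on a log scale, so a point at 0.05 is a count of 0, and each point is 1 library: blue circles ESC, red squares NPC, yellow triangles Phc1-KO. Lama2 lies at 209 and 233 CPM in NPC and under 11 CPM in the other 4 libraries, while Itga2 is highest in the 2 Phc1-KO libraries, at 40.5 and 22.5 CPM.

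Of the laminin alpha chains, NPC carried more Lama2 and Lama4 RNA and less Lama1, Lama3 and Lama5 than ESC. Lama2, the chain of the merosin laminins of muscle and peripheral nerve, was at 10.4 and 7.97 CPM in ESC, 209 and 233 CPM in NPC, and 7.17 and 4.40 CPM in Phc1-KO. It rose 24.1-fold in NPC (log2 fold change 4.59, SE 0.26, adjusted p = 2.54e-05), and the NPC libraries stood far above the other 4. Lama4, a chain of vascular and mesenchymal basement membranes, was at 24.3 and 25.3 CPM in ESC, 224 and 402 CPM in NPC, and 18.0 and 15.7 CPM in Phc1-KO. Its log2 fold change in NPC against ESC was 3.66 (SE 0.29, adjusted p = 8.24e-05), and again only the NPC libraries were high. Neither chain was called in Phc1-KO against ESC, with 95% intervals of -1.26 to -0.07 for Lama2 and -1.20 to 0.08 for Lama4. In bulk RNA, fewer cells of a type and less RNA per cell cannot be told apart, here and in every comparison that follows. All 5 astrocyte markers were called higher in NPC than in ESC, summing to 16.7 to 18.0 CPM in ESC, 201 and 752 CPM in NPC, and 10.9 to 12.6 CPM in Phc1-KO, with none at 0 in any group. Of the 10 fibroblast markers, 8 were called higher and 1 lower in NPC, with a median log2 fold change of 3.49. Over all genes tested, 30.4% were called higher and 30.9% lower in NPC against ESC. Of the 5 endothelial markers, 0 were called higher and 2 lower in NPC. They summed to 25.7 to 26.1 CPM in ESC, 4.80 to 6.95 CPM in NPC and 14.5 to 16.0 CPM in Phc1-KO. The part of cells with any of these markers in the levels of the members in NPC was not tested.

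Lama1, a chain of early embryonic basement membranes, was at 136 and 137 CPM in ESC, 47.2 and 23.5 CPM in NPC, and 110.0 and 73.0 CPM in Phc1-KO. It fell 3.87-fold in NPC (log2 fold change -1.95, SE 0.34, adjusted p = 0.00219), and the Phc1-KO libraries lay between the other groups without overlap. Lama5, a chain of laminins that support stem cell adhesion, was at 339 and 329 CPM in ESC, 133 and 41.2 CPM in NPC, and 249 and 221 CPM in Phc1-KO. Its log2 fold change in NPC against ESC was -1.94 (SE 0.46, adjusted p = 0.00923), and the 2 NPC libraries were themselves 3.22-fold apart. Without NPC 1 it was -3.02, and without NPC 2 -1.33. Lama3, an epithelial chain, was lower: 6.04 and 5.54 CPM in ESC, 3.29 and 3.57 CPM in NPC, and 3.30 and 3.10 CPM in Phc1-KO. Its fall in NPC, a log2 fold change of -0.75, was not called without ESC 1 (adjusted p = 0.204) or without ESC 2 (adjusted p = 0.136), over alternatives from 0.0198 to 0.204. None of the 5 alpha chains was called in Phc1-KO against ESC by edgeR, and 2 had an unadjusted p under 0.05. By DESeq2 none was called either, while edgeR without NPC 1 called Lama3, Lama4 and Lama5. Against NPC, Lama1 and Lama5 were called higher in Phc1-KO, at 1.37 and 1.43 on the log2 scale, but without Phc1-KO 1 their adjusted p rose to 0.0796 and 0.135, and without Phc1-KO 2 that of Lama5 was 0.11.

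As shares of the summed laminin alpha RPKM, the leading chains differed between ESC and NPC. Lama1 and Lama5 together made up 92.3% and 92.6% in ESC, 29.2% and 9.55% in NPC, and 92.9% and 93.0% in Phc1-KO. Lama2 and Lama4 together made up 6.46% and 6.25% in ESC, 70.3% and 89.9% in NPC, and 6.20% and 6.02% in Phc1-KO. By this measure the Phc1-KO libraries lay beside ESC and the groups ESC and NPC did not overlap. The sum itself moved less, at 47.2 ± 0.719 RPKM in ESC, 60.3 ± 4.81 RPKM in NPC and 32.5 ± 4.84 RPKM in Phc1-KO (SD, n = 2). Among single chains per length, Lama5 ranked first in ESC (29.3 ± 0.643 RPKM) and Phc1-KO (20.6 ± 1.74 RPKM). In NPC, Lama4 (25.9 ± 10.5 RPKM) and Lama2 (22.7 ± 1.74 RPKM) led, and their order there was not beyond their spread. Merged exons came to 12068 bases for Lama4 and 9728 for Lama2, and the longest transcripts to 6046 and 9710 bases. Their order and shares per length therefore depend on the length used.

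The beta chains Lamb1 and Lamb2, which join most laminins, were higher in NPC, and the epithelial chain Lamb3 was lower there and in Phc1-KO. Lamb1 was at 279 and 279 CPM in ESC, 541 and 618 CPM in NPC, and 331 and 287 CPM in Phc1-KO, a log2 fold change of 1.05 (SE 0.14) in NPC against ESC. Lamb2, the chain of mature basement membranes and synapses, was at 56.9 and 50.2 CPM in ESC, 142 and 191 CPM in NPC, and 42.5 and 33.4 CPM in Phc1-KO, a log2 fold change of 1.64 (SE 0.20). Both were called, the NPC libraries lay above the other 4, and neither was called in Phc1-KO against ESC. Lamc1, the gamma chain of most laminins, was called in none of the 3 comparisons. It was at 443 and 423 CPM in ESC, 517 and 396 CPM in NPC, and 448 and 276 CPM in Phc1-KO. All 3 groups overlapped. The 95% interval of its log2 fold change ran from -0.49 to 0.64 in NPC and from -0.83 to 0.31 in Phc1-KO against ESC. Without Phc1-KO 1 it was called lower in Phc1-KO than in NPC (-0.71, adjusted p = 0.0303, over alternatives from 0.0303 to 0.962).

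Lamb3, a chain of the laminin that anchors epithelia, was at 5.92 and 5.47 CPM in ESC, 0.723 and 0.195 CPM in NPC, and 1.57 and 1.64 CPM in Phc1-KO. Its log2 fold changes against ESC were -3.62 (SE 0.48, adjusted p = 0.000663) in NPC and -1.82 (SE 0.40, adjusted p = 0.034) in Phc1-KO. The 3 groups did not overlap, with Phc1-KO between the others. In NPC its value was -4.82 without NPC 1 and -2.96 without NPC 2. Its call in Phc1-KO against ESC was lost when any ESC or Phc1-KO library was left out, with adjusted p of 0.239 (without ESC 1), 0.208 (ESC 2), 0.131 (Phc1-KO 1) and 0.173 (Phc1-KO 2). Over all alternatives that adjusted p ran from 0.00403 to 0.239. Lamb3 against NPC, higher in Phc1-KO by 1.80, was not called without Phc1-KO 1 (0.0646) or Phc1-KO 2 (0.078), and stood at 3.01 without NPC 1 and 1.15 without NPC 2. Among 7 trophoblast markers, 1 was called higher and 5 lower in NPC than in ESC, and 0 were called higher and 5 lower in Phc1-KO than in ESC. Their summed level was 254 to 259 CPM in ESC, 7.37 to 10.9 CPM in NPC and 76.9 to 84.6 CPM in Phc1-KO, with Cdx2 at 0 in NPC. Of all genes tested, 30.4% were called higher and 30.9% lower in NPC than in ESC, and 4.91% and 5.75% in Phc1-KO. The 4 epidermal markers summed to no more than 1.11 CPM in any library, with Krt5, Krt14 and Dsg3 at 0 in NPC. The part of such cells in the level of Lamb3 was not tested.

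Lamc3, the chain found in retina and nerve, was at 0.263 to 0.519 CPM in all libraries. The plot of shares sets the laminin alpha chains beside the integrin chains described next.

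**Figure D2:**
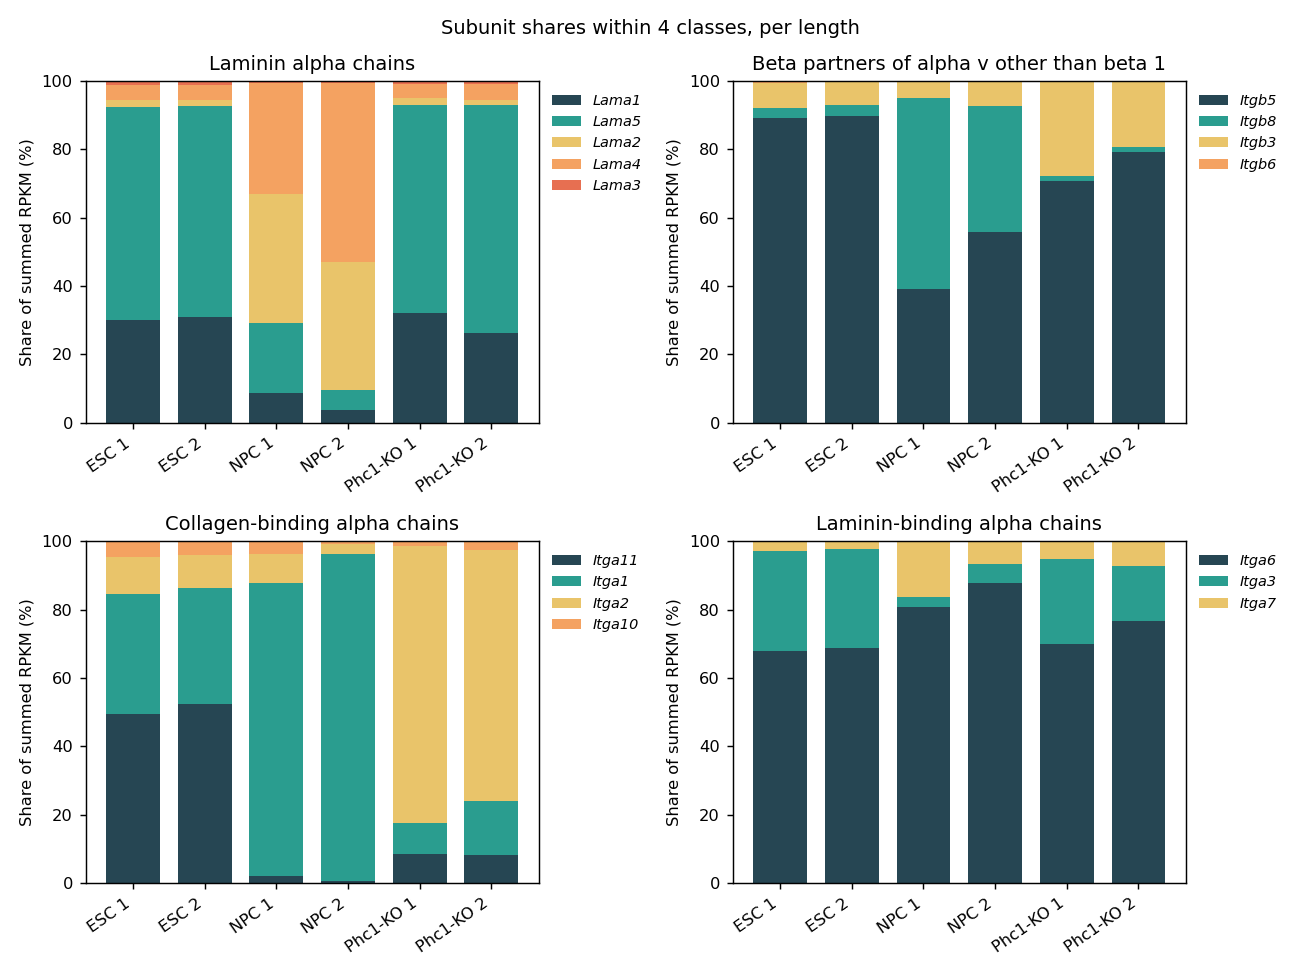
Make-up of 4 groups of chains in each library, as percent of the summed RPKM of the chains named in each panel; each bar is 1 library and reaches 100%. Lama1 and Lama5 make up 92.3% to 93.0% of laminin alpha in ESC and Phc1-KO and 29.2% and 9.55% in NPC. Of the alpha v partners other than Itgb1, which is left out of that panel, Itgb8 takes 55.9% and 36.9% in NPC. Itga2 takes 81.0% and 73.6% of the collagen receptor alpha chains in Phc1-KO.

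Among the laminin receptor alpha chains, Itga6 stayed prominent in every group and Itga3 was lowest in NPC. Itga6, which binds laminin with beta 1 or beta 4, was at 237 and 239 CPM in ESC, 216 and 169.6 CPM in NPC, and 221 and 216 CPM in Phc1-KO. It was called in no comparison, with 95% intervals of -0.65 to 0.04 in NPC and -0.46 to 0.22 in Phc1-KO against ESC. Without NPC 1 it was called in both comparisons with NPC, lower in NPC than in ESC (-0.49, adjusted p = 0.0157, over alternatives from 0.0157 to 0.385) and higher in Phc1-KO than in NPC (0.37, adjusted p = 0.0383, over alternatives from 0.0383 to 0.907). Itga3, a receptor chain for laminins with the alpha 3 or alpha 5 chain, was at 64.5 and 63.0 CPM in ESC, 4.80 and 6.75 CPM in NPC, and 49.7 and 29.0 CPM in Phc1-KO. It fell 11-fold in NPC (log2 fold change -3.46, SE 0.31, adjusted p = 0.000132) and was not called in Phc1-KO against ESC (-0.70, 95% interval -1.34 to -0.06).

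Itga7, the laminin receptor of muscle and glia, was at 4.81 and 3.95 CPM in ESC, 20.5 and 6.04 CPM in NPC, and 7.80 and 9.58 CPM in Phc1-KO. Its call in NPC against ESC, at 1.60, was lost in 5 of 6 settings that left out 1 library. Its value was 0.46 without NPC 1 (adjusted p = 0.167) and 2.23 without NPC 2 (0.000366), and the adjusted p was 0.0831, 0.129, 0.0873 and 0.0875 without ESC 1, ESC 2, Phc1-KO 1 and Phc1-KO 2. In Phc1-KO it was uncalled against ESC (0.99, 95% interval -0.26 to 2.23), and it was called where an NPC library was left out or where those groups were fitted alone. Against NPC it was uncalled at -0.61, was called at -1.24 without NPC 2 (adjusted p = 0.00319, over alternatives to 0.626) and was 0.53 without NPC 1 (adjusted p = 0.108). The 4 muscle markers summed to 13.6 to 14.6 CPM in ESC, 5.46 to 16.0 CPM in NPC and 12.8 to 14.6 CPM in Phc1-KO, with Myod1 at 0 in ESC and NPC, and their part in Itga7 was not tested. Of the summed RPKM of these 3 chains, Itga6 made up 67.9% and 68.9% in ESC, 80.9% and 87.8% in NPC, and 70.0% and 76.6% in Phc1-KO. Itga3 made up 29.2% and 28.7% in ESC and 2.84% and 5.53% in NPC. Itga6 had 9025 bases of merged exons and a longest transcript of 4310 bases, so these shares depend on the length used.

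Itgb4, the hemidesmosome partner of Itga6, was far below it per length, at 0.821 ± 0.0204 RPKM in ESC against 26.4 ± 0.121 RPKM for Itga6. It was at 5.86 and 5.66 CPM in ESC, 1.91 and 3.12 CPM in NPC, and 5.34 and 4.35 CPM in Phc1-KO. Its fall in NPC, at -1.19 on the log2 scale, was not called without ESC 1 (adjusted p = 0.0742) or ESC 2 (0.0644), over alternatives from 0.00422 to 0.0742. In Phc1-KO it was called higher than in NPC at 0.95, and this call was lost when any 1 library but NPC 2 was left out, with adjusted p from 0.0573 to 0.116. Those values were 0.0684 without either ESC library, 0.0749 without NPC 1, 0.116 without Phc1-KO 1 and 0.0573 without Phc1-KO 2.

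The collagen receptor alpha chains took 3 different courses. Itga1, which binds basement membrane collagen, was at 11.9 and 10.1 CPM in ESC, 138 and 284 CPM in NPC, and 8.54 and 9.19 CPM in Phc1-KO. It rose 19.2-fold in NPC (log2 fold change 4.26, SE 0.36, adjusted p = 0.000103) and was not called in Phc1-KO against ESC (-0.31, 95% interval -1.10 to 0.48). Without NPC 2 its value was 3.66 against ESC, and against NPC it moved from -4.57 to -3.96. Itga2, a receptor for fibrillar collagen and laminin, was at 1.91 and 1.52 CPM in ESC, 7.30 and 4.35 CPM in NPC, and 40.5 and 22.5 CPM in Phc1-KO. The 3 groups did not overlap, and Phc1-KO was highest. Against ESC, Itga2 rose 18.4-fold in Phc1-KO (log2 fold change 4.19, SE 0.41, adjusted p = 0.00454) and 3.39-fold in NPC (1.76, SE 0.41, adjusted p = 0.00848). Against NPC it was higher in Phc1-KO by 2.43 (SE 0.37, adjusted p = 0.00111).

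Itga11, a fibroblast receptor for fibrillar collagen, was at 10.7 and 9.98 CPM in ESC, 2.17 and 1.36 CPM in NPC, and 5.18 and 3.05 CPM in Phc1-KO. It fell in NPC by 2.54 (SE 0.37) on the log2 scale, and in Phc1-KO against ESC it narrowly missed the threshold at -1.33 (SE 0.34, adjusted p = 0.0502, over alternatives from 0.0157 to 0.312). It was called there with either NPC library left out. Its call in Phc1-KO against NPC, at 1.21, was lost without NPC 2 (adjusted p = 0.0858) and without Phc1-KO 1 (0.109). Itga10, a cartilage collagen receptor, reached at most 3.88 CPM, in NPC 1. Its call in NPC against ESC, at 1.60, was lost in 5 of 6 settings that left out 1 library, with the value 0.81 without NPC 1 (adjusted p = 0.107) and adjusted p of 0.0809, 0.129, 0.0616 and 0.0617 without ESC 1, ESC 2, Phc1-KO 1 and Phc1-KO 2. In Phc1-KO against NPC, at -1.54, it was not called without NPC 1 (-0.73, adjusted p = 0.121), Phc1-KO 1 (0.115) or Phc1-KO 2 (0.128). Its level is uncertain, since how the counting treated overlapping exons is not given in the sources used here.

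Itga2 (chr13:115626124-115722249) and Itga1 (chr13:115748287-115892172) lie 26037 bases apart on the minus strand of mm9 with 0 protein-coding genes between them. Of the summed RPKM of the 4 collagen receptor alpha chains, Itga2 made up 10.8% and 9.70% in ESC, 8.58% and 2.78% in NPC, and 81.0% and 73.6% in Phc1-KO. Itga1 made up 35.3% and 33.9% in ESC, 85.6% and 95.7% in NPC, and 8.99% and 15.8% in Phc1-KO. In ESC the leading chain was Itga11, at 49.4% and 52.3%. Each group thus had a different leading collagen receptor chain, and both libraries of every group agreed on it.

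**Figure D3:**
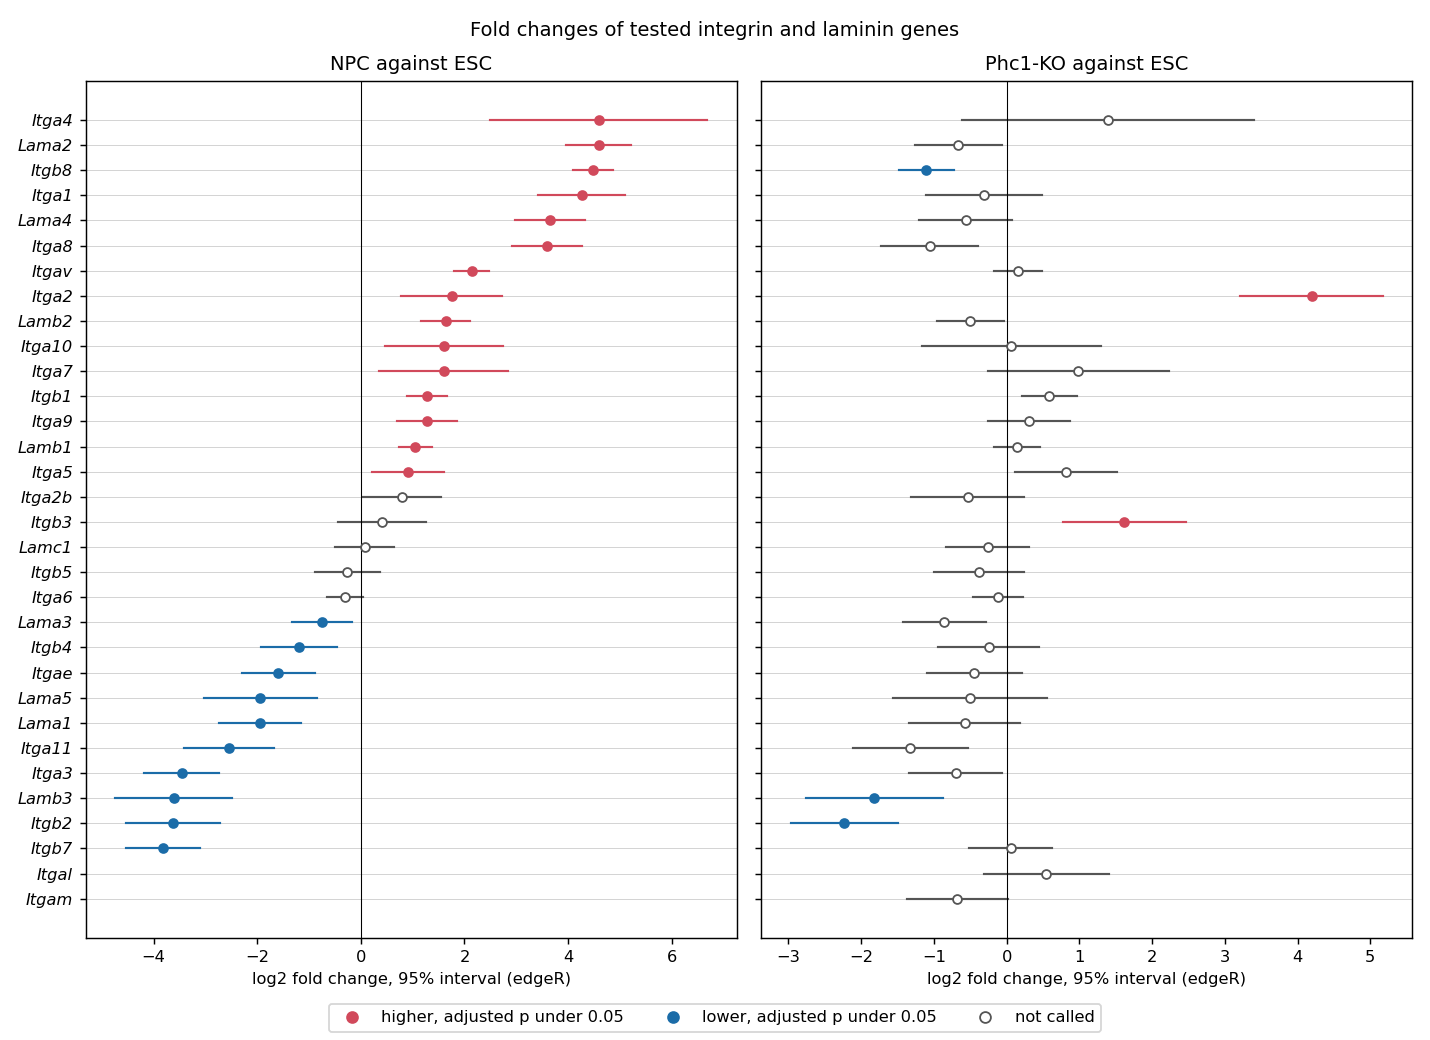
Log2 fold changes with 95% intervals from edgeR for all but 1 of the 33 tested members, NPC against ESC on the left and Phc1-KO against ESC on the right, on axes of different range. Filled points were called, red higher and blue lower, and open points were not; Itgam and Itgal are left out on the left because NPC held 0 and 2 counts of them. On the right, 5 members are filled, with Itga2 farthest from 0 at 4.19.

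Among integrin chains of receptors for the RGD motif of fibronectin, vitronectin and latent TGF-beta, Itgav, Itga8, Itga5 and Itgb8 were called higher in NPC than in ESC, Itga2b, Itgb3 and Itgb5 were not called, and Itgb6 was not tested. Itgav, the alpha chain that Itgb3, Itgb5, Itgb6 and Itgb8 share, was at 154 and 163 CPM in ESC, 762 and 634 CPM in NPC, and 186 and 167 CPM in Phc1-KO. It rose 4.40-fold in NPC (log2 fold change 2.14, SE 0.15, adjusted p = 4.77e-05), and the Phc1-KO libraries lay near ESC (0.15, 95% interval -0.18 to 0.48). Itga8, which pairs with beta 1 and binds nephronectin, was at 13.3 and 14.0 CPM in ESC, 119.8 and 211 CPM in NPC, and 6.97 and 6.14 CPM in Phc1-KO. It rose 12.1-fold in NPC (log2 fold change 3.60, SE 0.28, adjusted p = 8.41e-05). Both Phc1-KO libraries were below both ESC libraries, but the difference of -1.06 (SE 0.28) was not called (adjusted p = 0.0564, over alternatives from 0.00611 to 0.269). It was called with either NPC library left out. Itga5, the fibronectin receptor chain, was at 41.1 and 45.6 CPM in ESC, 78.7 and 83.4 CPM in NPC, and 101.5 and 51.1 CPM in Phc1-KO, so the 2 Phc1-KO libraries differed 1.99-fold. Its call in NPC against ESC, at 0.90, was lost without ESC 1 (adjusted p = 0.135), ESC 2 (0.089), NPC 1 (0.0604) or NPC 2 (0.0814), and with upper-quartile scaling (0.0552). Against ESC and NPC it was uncalled in Phc1-KO, but without Phc1-KO 2 it was called against ESC and without Phc1-KO 1 it was called lower than in NPC (-0.65, adjusted p = 0.0142, over alternatives to 0.955).

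Itga2b, the platelet chain that pairs with Itgb3, was at 4.50 and 5.41 CPM in ESC, 6.18 and 11 CPM in NPC, and 3.40 and 3.43 CPM in Phc1-KO. It was called only in Phc1-KO against NPC, at -1.33 (SE 0.33, adjusted p = 0.00957), and not there without Phc1-KO 1 (0.0608) or Phc1-KO 2 (0.0643). Without NPC 1 it was also called higher in NPC than in ESC (1.15, adjusted p = 0.00487, over alternatives to 0.296). The 4 megakaryocyte markers summed to 4.50 to 5.12 CPM in ESC, 3.12 to 4.54 CPM in NPC and 1.5 to 1.57 CPM in Phc1-KO, with Gp9 at 0 in ESC and Gata1 at 0 in NPC. Their part in the level of Itga2b was not tested.

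Of the beta chains other than Itgb1 that pair with alpha v, Itgb8 followed NPC and Itgb3 followed Phc1-KO. Itgb8, which activates latent TGF-beta in neural tissue, was at 8.57 and 8.09 CPM in ESC, 201 and 172 CPM in NPC, and 3.98 and 3.77 CPM in Phc1-KO. It rose 22.3-fold in NPC (log2 fold change 4.48, SE 0.16, adjusted p = 6.34e-06) and fell 2.15-fold in Phc1-KO (-1.10, SE 0.16, adjusted p = 0.0112), and the 3 groups did not overlap. The call in Phc1-KO was lost without ESC 1 (adjusted p = 0.136), ESC 2 (0.114) or Phc1-KO 2 (0.0785), over alternatives from 0.00012 to 0.136. Itgb3, the vitronectin receptor chain of platelets and osteoclasts, was at 10.7 and 9.43 CPM in ESC, 9.08 and 17.5 CPM in NPC, and 38.1 and 23.7 CPM in Phc1-KO. Both Phc1-KO libraries were above the other 4, while ESC and NPC overlapped. It rose 3.07-fold in Phc1-KO against ESC (log2 fold change 1.62, SE 0.36, adjusted p = 0.0352) and by 1.21 (SE 0.35, adjusted p = 0.0192) against NPC. Against ESC the call was lost without ESC 1 (0.2), ESC 2 (0.233), Phc1-KO 1 (0.13) or Phc1-KO 2 (0.103), over alternatives from 0.000323 to 0.233. Against NPC it was lost without NPC 1 (0.0522) or Phc1-KO 1 (0.134). The fibroblast markers rose beside Itga2 and Itgb3, with 7 of 10 called higher in Phc1-KO than in ESC, beside 4.91% of all genes. Itga11, the fibroblast collagen receptor given above, went the other way at -1.33, uncalled. The part of cells with fibroblast markers in the levels of these 3 members was not tested.

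Itgb5, a widely expressed alpha v partner, was at 74.8 and 71.2 CPM in ESC, 42.7 and 79.2 CPM in NPC, and 55.7 and 56.4 CPM in Phc1-KO. It was called in no comparison, with 95% intervals of -0.88 to 0.36 in NPC and -1.01 to 0.24 in Phc1-KO against ESC. The NPC pair decided its value: it was called lower in NPC than in ESC without NPC 2 (-0.77, adjusted p = 0.00458, over alternatives to 0.619), and in Phc1-KO against NPC it was called at -0.49 without NPC 1 and at 0.39 without NPC 2. Of the summed RPKM of Itgb3, Itgb5, Itgb6 and Itgb8, Itgb5 made up 89.1% and 89.9% in ESC, 39.2% and 56.0% in NPC, and 70.7% and 79.2% in Phc1-KO. Itgb8 made up 3.11% and 3.10% in ESC, 55.9% and 36.9% in NPC, and 1.53% and 1.61% in Phc1-KO. Itgb3 made up 7.31% and 6.85% in ESC, 4.79% and 7.13% in NPC, and 27.8% and 19.2% in Phc1-KO. Beside Itgb5, the larger share was that of Itgb8 in NPC and of Itgb3 in Phc1-KO. Merged exons came to 11060 bases for Itgb8 and 3362 for Itgb5, and the longest transcripts to 8403 and 3090 bases. The shares of Itgb5 and Itgb8, and their order in NPC, therefore depend on the length used.

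Itgb1, the partner of most alpha chains, was the most abundant integrin per length in all groups, at 184 ± 1.40 RPKM in ESC, 445 ± 32.6 RPKM in NPC and 275 ± 50.1 RPKM in Phc1-KO. In CPM it was at 753 and 745 in ESC, 1911 and 1723 in NPC, and 1268 and 979 in Phc1-KO, and the groups did not overlap. It rose 2.43-fold in NPC (log2 fold change 1.28, SE 0.16, adjusted p = 0.00055). In Phc1-KO against ESC it was at 0.58 (SE 0.16), which was not called (adjusted p = 0.0617, over alternatives from 0.0101 to 0.383) but was called with either NPC library left out. Itgb1 made up 85.2% to 93.4% of the summed integrin beta RPKM in every library. The alpha chains summed to 75.5 ± 0.602 RPKM in ESC, 174 ± 3.96 RPKM in NPC and 84.2 ± 15.4 RPKM in Phc1-KO, and the beta chains to 215 ± 2.37, 483 ± 25.5 and 304 ± 50.5 RPKM. In ESC and Phc1-KO, Itga6 was the leading alpha chain, at 26.4 ± 0.121 and 24.2 ± 0.425 RPKM, and in NPC Itgav was, at 65.0 ± 8.40 RPKM.

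Itga4, which binds VCAM-1 and fibronectin, and Itga9 were called higher in NPC. Itga4, known from leukocytes and neural crest, was at 2.96 and 3.41 CPM in ESC, 136 and 18.4 CPM in NPC, and 7.75 and 8.95 CPM in Phc1-KO. The NPC pair was 7.40-fold apart, the widest among members at 5 CPM or more in a group, and both libraries were above the other 4. The log2 fold change in NPC against ESC was 4.60 (SE 0.89, adjusted p = 0.00363), at 2.53 without NPC 1 and 5.42 without NPC 2. In Phc1-KO it was not called against ESC (1.39, 95% interval -0.62 to 3.40), but was called where either NPC library was left out or ESC and Phc1-KO were fitted alone. Against NPC it was called at -3.21, with -1.13 without NPC 1 and -4.02 without NPC 2, but not without Phc1-KO 1 (adjusted p = 0.107) or Phc1-KO 2 (0.102). Itga9, which binds tenascin and osteopontin, was at 22.5 and 18.1 CPM in ESC, 38.2 and 59.9 CPM in NPC, and 25.2 and 24.9 CPM in Phc1-KO. It rose 2.42-fold in NPC (log2 fold change 1.28, SE 0.24). It was called at -0.97 in Phc1-KO against NPC, though not without Phc1-KO 1 (adjusted p = 0.0639) or Phc1-KO 2 (0.0712).

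Of the tested chains known from leukocytes, Itga4 was called higher in NPC, as given above, and Itgb7, Itgae, Itgam, Itgal and Itgb2 were called lower there than in ESC, Itgb2 also in Phc1-KO. Itgb7, the beta chain of lymphocyte homing receptors, was at 15.1 and 15.4 CPM in ESC, 0.855 and 1.30 CPM in NPC, and 13.5 and 18.3 CPM in Phc1-KO. It fell 14.2-fold in NPC (log2 fold change -3.81, SE 0.30, adjusted p = 8.43e-05), and Phc1-KO overlapped ESC (0.06, 95% interval -0.51 to 0.63). Itgae, the partner of Itgb7 in the E-cadherin receptor, was at 6.04 and 6.02 CPM in ESC, 2.37 and 1.62 CPM in NPC, and 3.98 and 4.89 CPM in Phc1-KO, and fell in NPC by 1.59 (SE 0.30) on the log2 scale. Its call in Phc1-KO against NPC, at 1.15, was lost without Phc1-KO 2 (adjusted p = 0.0548).

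Itgam, the alpha chain of the myeloid receptor Mac-1, was at 5.18 and 4.93 CPM in ESC, 0 and 0 CPM in NPC, and 3.56 and 2.76 CPM in Phc1-KO. Against a floor of 3 counts over the NPC group, it was at least 51.6-fold higher in ESC and at least 32.1-fold higher in Phc1-KO than in NPC. Itgal, the alpha chain of the lymphocyte receptor LFA-1, was at 2.78 and 3.53 CPM in ESC, 0.132 and 0 CPM in NPC, and 4.56 and 4.64 CPM in Phc1-KO. With 2 counts in NPC, its ratio was 48.3 for ESC over NPC (95% counting interval 13 to 404) and 70.4 for Phc1-KO over NPC (19.2 to 586). Neither was called in Phc1-KO against ESC, with 95% intervals of -1.38 to 0.02 for Itgam and -0.31 to 1.40 for Itgal. Itgb2, the beta chain that both Itgam and Itgal need to reach the cell surface, was at 2.59 and 2.43 CPM in ESC, 0.197 and 0.195 CPM in NPC, and 0.524 and 0.532 CPM in Phc1-KO. It fell 12.8-fold in NPC (log2 fold change -3.63, SE 0.38, adjusted p = 0.000256) and 4.76-fold in Phc1-KO (-2.23, SE 0.31, adjusted p = 0.0102), with no overlap between groups. The call in Phc1-KO was lost without ESC 1 (0.128), ESC 2 (0.115) or Phc1-KO 2 (0.0813), over alternatives from 0.00553 to 0.128. Its difference between Phc1-KO and NPC, at 1.40, was not called when any 1 library was left out, with adjusted p from 0.0654 to 0.104.

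Macrophage and leukocyte markers were lower in NPC, as these 5 chains were. Of 13 such markers, 12 were tested. Called lower than in ESC were 12 in NPC, beside 30.9% of all genes, and 8 in Phc1-KO, beside 5.75%. The 13 markers summed to 154 to 157 CPM in ESC, 6.38 to 8.05 CPM in NPC and 24.2 to 39.3 CPM in Phc1-KO. Emr1, Tyrobp, Spi1, C1qa, C1qb and C1qc were at 0 in both NPC libraries, and none was at 0 in both libraries of another group. Their part in the levels of Itgb2, Itgam, Itgal, Itgae and Itgb7 was not tested. In Phc1-KO the summed markers were lower than in ESC in both libraries. So were Itgb2, called at -2.23, and Itgam and Itgae, both uncalled. Itgb7 overlapped ESC, and Itgal was above ESC in both libraries, uncalled at 0.54. Itgax and Itgad, which lie directly downstream of Itgam on chromosome 7, were at no more than 0.0658 CPM in any library.

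**Figure D4:**
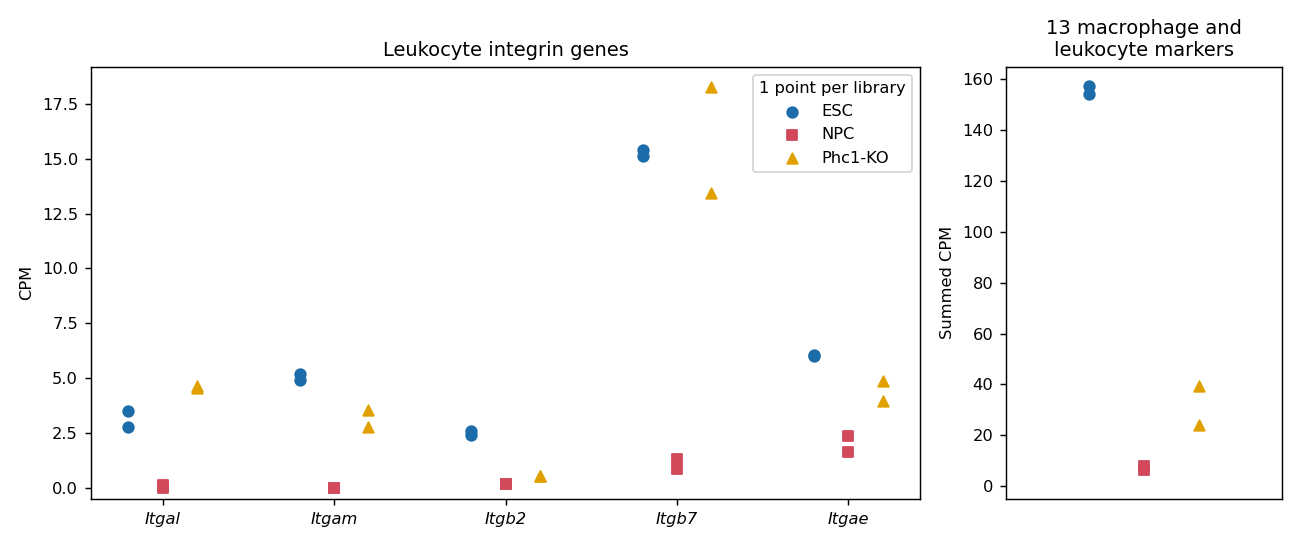
Level of 5 integrin chains known from leukocytes and summed level of 13 macrophage and leukocyte markers in each library, in CPM; each point is 1 library. The summed markers lie at 154 to 157 CPM in ESC, 6.38 to 8.05 in NPC and 24.2 to 39.3 in Phc1-KO. Itgb2, Itgam and Itgae also lie lower in Phc1-KO than in ESC, Itgal lies higher, and Itgb7 lies at 13.5 to 18.3 CPM over the libraries of both groups.

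Lists of other genes of the pathway, written by function, were counted in the same tests. Beside their counts stand the shares of all genes called, which were 61.3% in NPC against ESC, 10.7% in Phc1-KO against ESC and 64.9% in Phc1-KO against NPC. Of 32 tested matrix ligands other than laminins, 18 were called higher and 9 lower in NPC against ESC, with a median log2 fold change of 1.14 against -0.01 over all genes. Cdh1, E-cadherin and the ligand of the Itgae and Itgb7 pair, was at 576 and 545 CPM in ESC, 0.789 and 1.04 CPM in NPC, and 577 and 473 CPM in Phc1-KO, a log2 fold change of -9.25 (SE 0.23) in NPC against ESC. Col4a1, a network collagen of basement membranes and ligand of Itga1, rose by 3.43 (SE 0.21), and Emilin1, a ligand of Itga4 and Itga9, by 3.55 (SE 0.18). Tnr, a neural tenascin, rose by 5.97 (SE 0.96), from 0.123 and 0.0608 CPM in ESC to 9.93 and 2.47 CPM in NPC. Spp1, osteopontin, went from 1198 and 1225 CPM in ESC to 41.7 and 7.08 CPM in NPC (-5.63, SE 0.75).

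Between Phc1-KO and ESC, 6 matrix ligands were called higher in Phc1-KO and 4 lower, with a median log2 fold change of -0.17 against 0.00 over all genes. Tnc, tenascin C and a ligand of Itga9 and of alpha v integrins, was at 220 and 215 CPM in ESC and at 1783 and 1242 CPM in Phc1-KO (log2 fold change 2.80, SE 0.39, adjusted p = 0.0102). Fbln2, a basement membrane fibulin, rose by 1.78 (SE 0.33) and Col4a2, which forms a trimer with Col4a1, by 1.30 (SE 0.22). Nid2, which links laminin to collagen, fell by 1.24 (SE 0.25) on the log2 scale and Cyr61, a secreted integrin ligand, by 1.29 (SE 0.23). Against NPC, 7 were higher and 17 lower in Phc1-KO, with Col4a6, a further basement membrane collagen, at -3.04 and Tgfb2, whose latent form alpha v integrins bind, at -4.56.

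Of 29 tested adaptor and signalling genes at the inner side of integrins, 15 were called higher and 6 lower in NPC against ESC, beside 61.3% of all genes called. Parva, which links integrins to actin, rose by 3.01 (SE 0.22), Tgfb1i1, the paxillin relative Hic-5, by 3.02 (SE 0.43) and the kinase Fyn by 2.48 (SE 0.22). Fermt1, the epithelial kindlin, was at 7.59 and 9.31 CPM in ESC, 0.263 and 0 CPM in NPC, and 12.4 and 12.6 CPM in Phc1-KO, and Ptk2b, a relative of focal adhesion kinase, fell in NPC by 2.72 (SE 0.33) on the log2 scale. Between Phc1-KO and ESC, 1 of the 29 adaptor genes was called higher and 2 lower, a share near the 10.7% of all genes called. Among them Parva rose by 1.01 (SE 0.21) and Nedd9, a docking protein of focal adhesions, fell by 1.86 (SE 0.35). Against NPC, 8 adaptor genes were higher and 14 lower in Phc1-KO. Ilk was not tested, at 0.0608 to 0.455 CPM, and 89.7% of its exon bases lie in exons of Rrp8 and Taf10.

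All 23 laminin receptors that are not integrins were tested, and 16 were called higher and 4 lower in NPC against ESC, beside 61.3% of all genes called, with a median log2 fold change of 1.05. Bcam, the Lutheran receptor for the laminin alpha 5 chain, was at 83.3 and 78.8 CPM in ESC, 4.60 and 6.69 CPM in NPC, and 79.3 and 74.6 CPM in Phc1-KO. It fell 14.4-fold in NPC (log2 fold change -3.84, SE 0.21) in the libraries in which Lama5 was low. Cd9, a tetraspanin that associates with laminin-binding integrins, fell by 2.87 (SE 0.33) on the log2 scale. Sgcb and Sspn, parts of the dystrophin complex that holds the receptor for Lama2, rose by 2.69 (SE 0.20) and 2.15 (SE 0.33), and the syndecan Sdc3 by 2.36 (SE 0.33). Compared with ESC, 1 was called higher in Phc1-KO, the tetraspanin Cd63 at 0.64 (SE 0.15), and 3 lower: the syndecan Sdc4 at -1.02 (SE 0.15), Sgce, a sarcoglycan, at -1.03 (SE 0.21) and Utrn, utrophin, at -0.62 (SE 0.15). Against NPC, 3 were higher and 16 lower in Phc1-KO. The counts of the 3 lists in Phc1-KO against ESC moved when single libraries were left out. Without ESC 1 or ESC 2, edgeR called 0 genes of each list there. Without Phc1-KO 1 it called 4 matrix ligands, 1 adaptor and 4 receptors, without Phc1-KO 2 it called 2, 0 and 1, and without NPC 1 or NPC 2 it called 14, 5 and 7. With all libraries, DESeq2 called 13, 6 and 6, and edgeR gave an unadjusted p under 0.05 to 17, 9 and 8.

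In all, 11 members were called higher in NPC than in both ESC and Phc1-KO, while Phc1-KO and ESC were not called apart, which does not make them equal: Itga1, Itga4, Itga8, Itga9, Itga10, Itgav, Itgb1, Lama2, Lama4, Lamb1 and Lamb2. Another 9 were called lower in NPC by the same count: Itga3, Itga11, Itgae, Itgal, Itgam, Itgb4, Itgb7, Lama1 and Lama5. Lamb3 and Itgb2 were called in all 3 comparisons with Phc1-KO between ESC and NPC. Itga2 was called in all 3 with Phc1-KO highest, and Itgb8 in all 3 with Phc1-KO lowest. Over all genes, 61.3% were called in NPC against ESC, 64.9% in Phc1-KO against NPC and 10.7% in Phc1-KO against ESC. The share of all genes with these patterns was not counted, so they are not shown to be particular to the members. Of the 6 members called in Phc1-KO against ESC, Itga2 was the only one called in all 14 alternatives to the test of any change. With ESC counted as 1 library, Itga2 was the 1 member called in Phc1-KO against ESC.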

How the data were processed

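Total RNA depleted of ribosomal RNA was sequenced as 50-base single-end reads. The authors deposited raw counts per Ensembl gene and library, without normalization, made with STAR and HTSeq on mm9 per the submitters' processing notes. The tool versions, strand handling and annotation release were not given in the sources used here. The 5 tally rows of reads not assigned to a gene were left out. Reads outside genes, ambiguous reads and reads aligned at several places made up 68.5% to 73.8% of the sum of these and the gene counts. Symbols, exons and positions came from an mm9 annotation.

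All 6 libraries were fitted together with edgeR 4.0.16 in R 4.3.3 (filterByExpr, minimum count 10 and total 15; TMM; quasi-likelihood test with 3 residual degrees of freedom; Benjamini-Hochberg over 17489 genes). The fit was also run on counts simulated from its own estimate of the spread, which cannot test that estimate. DESeq2 1.42.0 and 14 further settings were alternatives. Members at 5 CPM or more in any group, or called, are given singly; of each pathway list the 5 largest called changes above that level are named. Counts cover all members and listed genes, of which a few are not reported singly here. Members and lists were chosen with earlier results of these data known. Replicate numbers did not pair the libraries. Intervals of fold changes come from the edgeR fit and its spread between libraries. The counting interval of Itgal and the floor of Itgam cover counting error only, since the reads carry no molecular identifiers. With 2 libraries per group, p-values of the main fit measure the spread within groups over all 6 libraries. The NPC libraries therefore also enter the p-values of Phc1-KO against ESC.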

Additional observations from a re-analysis of the deposited data

How the results depend on the processing

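Called members numbered 28 in NPC against ESC, 6 in Phc1-KO against ESC and 27 in Phc1-KO against NPC. A test against a 2-fold change left 18, 1 and 14. In Phc1-KO against ESC, DESeq2 called 10, a fit of only these libraries 15, and ESC counted as 1 library 1; leaving out each library in turn gave 1 to 14, the lowest without ESC 1 or ESC 2, the highest without NPC 1 or NPC 2, 3 without Phc1-KO 1 and 2 without Phc1-KO 2. The other ranges were 23 to 28 in NPC against ESC and 18 to 27 in Phc1-KO against NPC, 18 without Phc1-KO 1 or Phc1-KO 2. Over all genes Phc1-KO against ESC gave 1864 calls, 3899 with only these libraries, 145 with ESC as 1 library, 178 against a 2-fold change and 92 to 3715 with a library left out; the other comparisons gave 5213 and 5779 against a 2-fold change. The cause was not tested. Upper-quartile scaling moved the median of all genes in NPC against ESC to -0.11.

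Directions turned only for uncalled members. In NPC against ESC, leaving out libraries moved Itgb3 over -0.14 (without NPC 2) to 0.80, Itgb5 over -0.77 to 0.12 (without NPC 1) and Lamc1 over -0.13 (without NPC 1) to 0.26; with upper-quartile scaling Lamc1 was at -0.019. In Phc1-KO against ESC, Itga10 ran from -0.084 (without ESC 2) to 0.24, Itgb7 from -0.18 (without Phc1-KO 2) to 0.27 and Lamc1 from -0.65 to 0.052 (without Phc1-KO 2); with total-count scaling Itga10 was at -0.019 and Itgb7 at -0.032. In Phc1-KO against NPC, Itga5 ran from -0.65 to 0.34 (without Phc1-KO 2), Itga7 from -1.24 to 0.53 (without NPC 1) and Itgb5 from -0.49 to 0.39 (without NPC 2).

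The replicate numbers did not pair the libraries: the correlation of deviations between same-numbered libraries was 0.02, 0.02 and -0.02. With a replicate block, 28, 7 and 26 members were called. Itga11 was gained in Phc1-KO against ESC and Itgb2 lost in Phc1-KO against NPC.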
